A study of Mus musculus with 72 samples.

Results

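Liver glycogen is built and broken down by a small set of enzymes and by the regulatory proteins that set the balance between them. This account follows 8 of their genes, Ppp1r3b, Ppp1r3c, Ppp1r3g, Gys2, Ugp2, Gbe1, Gyg and Pygl, through the day in mouse liver under 4 feeding paradigms. The genes were chosen by name, for their role in glycogen metabolism, and all 8 were found by Ensembl identifier among the 51912 genes of the deposited count table. Levels came from 72 libraries of 3′ mRNA sequencing, a method that reads the 3′ end of each polyadenylated transcript. All libraries were from the liver of wild-type male C57BL/6J mice, 43 to 49 days old at the start, kept under 12 h of light and 12 h of dark with free access to water. Feeding was night-restricted, ad libitum (food at all times) or arrhythmic, and a further group, labelled as arrhythmic mice that did not adapt fully, is called incompletely adapted below. Each paradigm had 3 libraries at each of 6 zeitgeber times (ZT, hours after lights on), ZT02, ZT06, ZT10, ZT14, ZT18 and ZT22. Separate animals are not named for the replicates, and p-values therefore measure only the spread between these samples. The schedule of the meals is not given in the sources used here, nor is the measure of adaptation.

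Glycogen synthesis starts from glucose 1-phosphate, which UDP-glucose pyrophosphorylase (Ugp2) activates to UDP-glucose. Glycogenin (Gyg) primes the chain, glycogen synthase (Gys2 in liver) extends it, and the branching enzyme (Gbe1) adds branches, while glycogen phosphorylase (Pygl in liver) releases glucose 1-phosphate from the chain ends. Phosphorylation switches the synthase off and the phosphorylase on, and protein phosphatase 1 (PP1) reverses both when a targeting subunit such as those encoded by Ppp1r3b (GL), Ppp1r3c (PTG) and Ppp1r3g brings it to the glycogen particle. Mice eat mostly in the dark, and liver glycogen is known to fill during feeding and to drain during the daily fast.

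Promoter sequences from RefSeq (GRCm38.p6) were matched by symbol for 6 of the 8 genes; Ppp1r3b and Gys2 are named here only. Each of the 7 windows ran from 250 bases before to 50 bases after an annotated start and was searched on both strands for 5 motifs: the E-box CACGTG, the D-box TTATGTAA, the nuclear receptor half-site AGGTCA, the FOXO element GTAAACA and the cAMP response element TGACGTCA. The upstream stretches of the following genes are shown because their daily courses take different forms below: Ppp1r3c cycled in every paradigm, Ppp1r3g cycled with a later fitted peak under arrhythmic feeding, and Pygl cycled under night-restricted feeding alone among the calls. The highest mean of Ppp1r3g stood at ZT10 in every paradigm. Lower case is the plain sequence, 5′ to 3′ on the gene's strand, and capitals mark a motif match. The Ppp1r3g and Pygl stretches lie inside the span of their gene in the GENCODE M21 annotation, which begins further upstream. Windows at those outer starts were not searched.

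Ppp1r3c, chr19:36736654-36736854, minus strand: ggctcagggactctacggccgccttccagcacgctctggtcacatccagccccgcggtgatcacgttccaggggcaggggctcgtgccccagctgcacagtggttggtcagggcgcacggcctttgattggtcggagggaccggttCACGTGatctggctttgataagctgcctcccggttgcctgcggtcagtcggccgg

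Ppp1r3g, chr13:35967656-35967852, plus strand: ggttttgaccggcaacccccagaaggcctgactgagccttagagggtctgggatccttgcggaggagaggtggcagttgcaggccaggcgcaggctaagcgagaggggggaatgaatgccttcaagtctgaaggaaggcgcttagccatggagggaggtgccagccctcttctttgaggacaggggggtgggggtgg

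Pygl, chr12:70227684-70227933, minus strand: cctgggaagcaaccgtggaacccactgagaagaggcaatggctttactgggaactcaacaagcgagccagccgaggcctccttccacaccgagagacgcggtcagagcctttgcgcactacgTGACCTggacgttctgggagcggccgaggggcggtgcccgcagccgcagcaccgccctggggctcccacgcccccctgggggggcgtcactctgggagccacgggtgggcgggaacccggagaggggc

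The Ppp1r3c stretch holds an E-box, the sequence that the clock activators CLOCK and BMAL1 bind, at -104 to -99 from the annotated start. The Pygl stretch holds TGACCT, the half-site AGGTCA read on the other strand, at -128 to -123. None of the 5 motifs was found in the whole Ppp1r3g window, and the only other match in the 7 windows was an E-box in Gyg, inside the transcript at +8 to +13. Over all 32851 promoters of the same length in the table, 7.15 percent held the E-box, 16.3 percent the half-site, 3.65 percent the FOXO element, 1.79 percent the cAMP response element and 0.938 percent the D-box, so a match is a description and not a site shown to act.

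Library totals ran from 4342026 to 12286021 counts (median 6992793). Ppp1r3g was the thinnest of the 8 genes, with 1 to 142 counts per library (median 23.5), followed by Gyg with 17 to 128, and the other 6 genes had at least 164 counts in every library. The lowest Ppp1r3g count, 1 in ad libitum replicate 1 and in night-restricted replicate 3 at ZT14, has an exact Poisson 95 percent interval of 0.0253 to 5.57 counts, which covers counting error only. The sum of 7 hepatocyte markers lay between 33200 and 61900 CPM (the count of a gene scaled to its library's total) in every library, and the sum of 5 skeletal muscle markers, a tissue that also stores glycogen, between 0 and 0.661 CPM. In bulk tissue, fewer cells of a type and less RNA per cell cannot be told apart. Libraries differed in how their log2 levels followed the GC content of 3′ ends, here called the GC slope. The 5 libraries furthest from the median slope are called extreme, a fixed number and not a cutoff on the slope. They were replicate 1 of ZT10 in the incompletely adapted group, and replicate 1 of ZT02, ZT06, ZT18 and ZT22 in the night-restricted group. The 3′ ends of the 8 genes had 38.8 to 47 percent GC against a median of 44.2 over the genes tested, and results whose call changed with this slope are named below.

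A cosine of 24 h was fitted to each gene in each paradigm with edgeR, in a single fit of all 72 libraries. All 8 genes were among the 12712 that passed the filter on low counts. A gene was called rhythmic when the joint test of its cosine and sine terms had an adjusted p (Benjamini-Hochberg over all genes tested) under 0.05. The range of a gene is its fitted peak minus its fitted trough in log2 units. It is never below 0, so noise by itself also gives a positive range.

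Of the 8 genes, 4 were called rhythmic in every paradigm and 1 in none. The shares of all genes called in every paradigm or in none were not computed, so these counts have no background beside them. Under night-restricted feeding 7 of 8 were called rhythmic, where 29.9 percent of all genes tested were called. At an unadjusted p under 0.05 all 8 passed, against 43.2 percent of all genes. Ad libitum feeding gave 6 (background 7.48 percent), arrhythmic feeding 4 (background 3.37 percent) and incompletely adapted feeding 5 (background 3.63 percent). Whether these counts differ between paradigms is not shown by the counts, and the tests of the differences follow gene by gene. Ppp1r3c, Ppp1r3g, Gys2 and Ugp2 were called in all 4 paradigms, Ppp1r3b in all but the arrhythmic, Gyg in the night-restricted and ad libitum, Pygl in the night-restricted, and Gbe1 in none. With no filter on low counts the arrhythmic calls of Ppp1r3g, Gys2 and Ugp2 were lost (adjusted p = 0.0553, 0.0618 and 0.0722 by edgeR). The median range of the 8 genes was 1.49 with night-restricted and 1.29 with ad libitum food, then 1.11 in the incompletely adapted and 0.90 in the arrhythmic group, where the medians over all genes tested were 0.71, 0.52, 0.42 and 0.43. The count of 4 under arrhythmic feeding was 2 without a single arrhythmic library in 4 cases (ZT02 replicate 1, ZT02 replicate 3, ZT10 replicate 3 or ZT22 replicate 1), and the count of 5 was 3 without incompletely adapted ZT18 replicate 2.

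**Figure D1:**
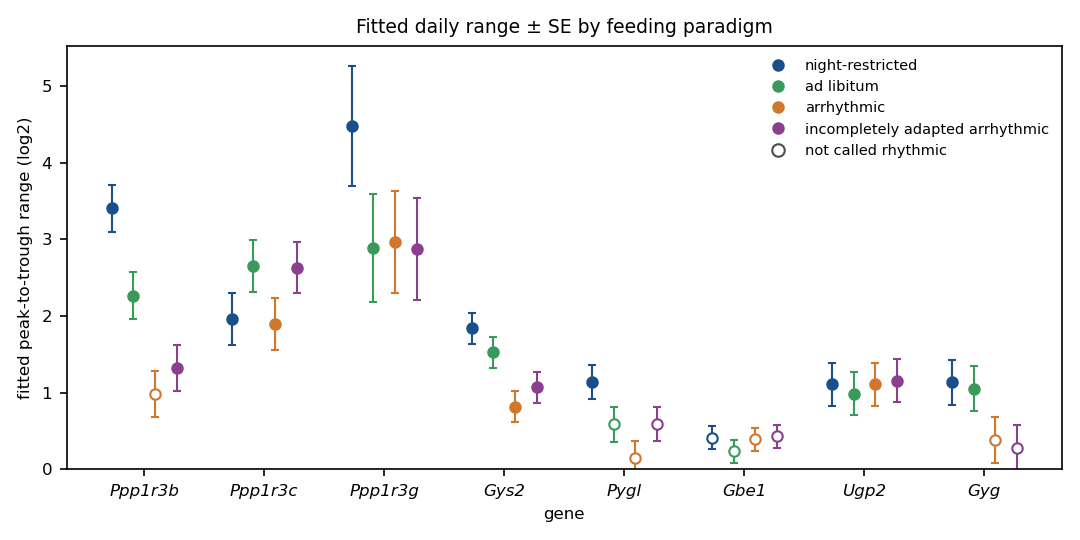
Fitted peak-to-trough range (log2, vertical axis) of each of the 8 genes in the 4 paradigms; points are estimates, bars ± SE (drawn down to 0 where they would pass it), filled points genes called rhythmic. The range of Ppp1r3b went from 3.40 under night-restricted to 0.98 under arrhythmic feeding, while that of Ppp1r3c lay between 1.89 and 2.66 in all 4 paradigms.

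Between arrhythmic and night-restricted feeding, 5 of 8 genes had an unadjusted p under 0.05 for a difference in rhythm, against 25.9 percent of all genes. After adjustment, the rhythm of 4 of 8 genes differed by this joint test of the cosine and sine terms, against 3.89 percent of all genes tested. They were Ppp1r3b, Ppp1r3g, Gys2 and Pygl, each with a smaller range under arrhythmic feeding. The median difference in range over the 8 genes was -0.87 (arrhythmic minus night-restricted), and over all genes tested -0.25. Under incompletely adapted feeding the rhythm of Ppp1r3b differed from that under night-restricted feeding, 1 of 8 genes, where the background was 0.614 percent. Unadjusted, 4 genes passed, against 14.6 percent of all genes. These comparisons share the night-restricted libraries. The count of 4 was 2 without arrhythmic ZT14 replicate 1, arrhythmic ZT14 replicate 2, night-restricted ZT02 replicate 1 or night-restricted ZT10 replicate 1, since the calls of Gys2 and Pygl were then lost.

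Ppp1r3b encodes the liver's main PP1 targeting subunit, GL (ENSMUSG00000046794.9, GRCm38 chromosome 8, 35375739 to 35388139, plus strand). Under night-restricted feeding its level by replicate was 171, 95.1 and 260.2 CPM at ZT06, 217, 396 and 249 CPM at ZT10, and 1694, 1259 and 1876 CPM at ZT14. At ZT18 it was 1755, 1490 and 2219 CPM. The transcript was thus low in all 6 libraries from the second part of the light phase and high in all 6 from the first part of the dark phase, with no overlap between them. The mean at ZT18 was 10.4 times that at ZT06. Its fitted range of 3.40 ± 0.30 (SE) peaked at ZT 18.8 ± 0.3 (adjusted p = 8.07e-11 by edgeR), and this range stood at the 99.3rd percentile of all genes tested.

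Under arrhythmic feeding the trough of Ppp1r3b at ZT06 and ZT10 was not seen. The lowest mean was at ZT02, 761.6 CPM, still in the light phase. All 3 libraries of that time lay below those of ZT14, which had the highest mean, 1447 CPM. Its level was 983, 1460 and 770 CPM at ZT06 and 1400, 1087 and 738 CPM at ZT10. Every one of these 6 libraries lay above every night-restricted library of the same time, with means 6.1 times higher at ZT06 and 3.74 times higher at ZT10. At ZT18 the order was the opposite, 1409, 1361 and 1165 CPM, all below the night-restricted libraries, with a ratio of means of 0.72, while the libraries of ZT02, ZT14 and ZT22 overlapped. The range was 0.98 ± 0.30, not called rhythmic over all genes (adjusted p = 0.137). The test of the difference from night-restricted feeding gave an adjusted p of 9.69e-05, the third smallest of all 12712 genes. That call held in every alternative run, with adjusted p from 2.62e-07 to 0.00587. With the arrhythmic libraries fitted alone, Ppp1r3b was called rhythmic there too (adjusted p = 0.0252).

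The level of Ppp1r3b at ZT06 and ZT10 was high in the incompletely adapted group too, with the lowest mean at ZT02 (735.7 CPM). At ZT06 the libraries held 929, 755 and 913 CPM, all above the night-restricted ones, with a ratio of means of 4.93, and at ZT10 740, 847 and 1193 CPM, with a ratio of 3.23. At ZT18 they held 1988, 2307 and 1164 CPM and overlapped with the night-restricted libraries. The range of 1.32 ± 0.30 peaked at ZT 17.1 ± 0.9 (adjusted p = 0.0086), and the call was lost without ZT18 replicate 2 (adjusted p = 0.0599), the library with the highest value. Its difference from night-restricted feeding had an adjusted p of 0.0122, and of 0.0821 when only the libraries of the 2 paradigms were fitted.

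Ad libitum feeding kept the trough of Ppp1r3b at ZT06 and ZT10. Its level was 270.4, 357 and 418 CPM at ZT06 and 532, 219.8 and 360 CPM at ZT10, then 1541, 1222 and 1559 CPM at ZT18. All 3 libraries of ZT06 lay above the night-restricted ones, with a night-restricted to ad libitum ratio of 0.504, and below the arrhythmic ones. At ZT14 the ad libitum libraries held 1197, 1137 and 593 CPM, all below the night-restricted ones, with a night-restricted to ad libitum ratio of 1.65. The range was 2.27 ± 0.30 with its peak at ZT 20.1 ± 0.5 (adjusted p = 2.85e-06). Against ad libitum feeding, the rhythm of 1 of 8 genes, Ppp1r3b, differed under arrhythmic feeding (adjusted p = 0.0327). The background was 0.0236 percent, or 3 genes in all. The other 2 were Pnpla3 (adjusted p = 0.0396) and Lgalsl (adjusted p = 0.0327), named here because the count is small. Unadjusted, 3 of the 8 genes passed, against 9.05 percent of all genes. Levels of Ppp1r3b under arrhythmic feeding were higher in all 3 libraries at ZT06, ZT10 and ZT14, with ratios of means of 3.08, 2.9 and 1.48. They were lower in all 3 at ZT22, with a ratio of 0.728. This call was lost with no filter on low counts (adjusted p = 0.0937) and in 15 of 72 fits that left out a single library (adjusted p = 0.0536 to 0.112). These libraries were arrhythmic ZT10 and ZT22 replicate 1, ZT06, ZT14 and ZT22 replicate 2, and ZT14 and ZT18 replicate 3, and ad libitum ZT06 replicate 1, ZT02, ZT06 and ZT10 replicate 2, and ZT02, ZT06, ZT10 and ZT14 replicate 3. For the night-restricted against the ad libitum rhythm of Ppp1r3b the adjusted p was 0.347.

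Ppp1r3c encodes PTG, a targeting subunit found in many tissues (ENSMUSG00000067279.2, chromosome 19, 36731731 to 36736653, minus strand). It was called rhythmic in all 4 paradigms, with its lowest mean at ZT10 in each. At that low point, ZT10, the level was 100.2, 161 and 53.4 CPM under night-restricted, 78.5, 35.1 and 69.0 CPM under ad libitum, 81.7, 104 and 46.2 CPM under arrhythmic, and 57.4, 49.0 and 59.5 CPM under incompletely adapted feeding. At ZT22 it was 259.7, 416 and 382 CPM, 366, 649 and 343 CPM, 424, 468 and 389 CPM, and 356, 415 and 374 CPM in the same order. In each paradigm all 3 libraries of ZT22 exceeded all 3 of ZT10. The lowest and highest means of the day differed by 3.4, 7.44, 5.52 and 6.9 times.

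Its ranges were 1.96 ± 0.34 with a peak at ZT 21.2 ± 0.7 under night-restricted (adjusted p = 4.42e-05), 2.66 ± 0.34 at ZT 23.2 ± 0.5 under ad libitum (1.96e-07), 1.89 ± 0.34 at ZT 22.2 ± 0.7 under arrhythmic (0.000806), and 2.63 ± 0.34 at ZT 22.1 ± 0.5 under incompletely adapted feeding (2.77e-06). No difference in rhythm was called for Ppp1r3c in any of the 5 comparisons made (smallest adjusted p = 0.493, night-restricted against ad libitum). Arrhythmic and night-restricted libraries overlapped at all 6 times, and at ZT02 the night-restricted libraries lay below the ad libitum ones, with a ratio of 0.516, and below the incompletely adapted ones. The rhythm under arrhythmic feeding was called in every fit that left out a single library (highest adjusted p = 0.00585), and was lost without the 6 libraries of arrhythmic replicate 1 (adjusted p = 0.0717).

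Ppp1r3g encodes a further targeting subunit, known for higher liver mRNA in the fasted state (ENSMUSG00000050423.10, chromosome 13, 35958839 to 35970388, plus strand). Under night-restricted feeding it was high when Ppp1r3b was low. At ZT10 in that paradigm it was 14.7, 12.9 and 13.7 CPM, at the last time sampled before dark, and 0.977, 1.05 and 0.166 CPM at ZT14, from 12, 7 and 1 counts. The mean at ZT10 was 18.9 times that at ZT14, and levels at ZT18 and ZT22 lay between 0.399 and 1.89 CPM. The fitted range of 4.48 ± 0.79 peaked at ZT 6.9 ± 0.6 (adjusted p = 3.78e-05), earlier than the highest mean, which stood at ZT10. A cosine follows the drop between these times only in part.

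Under ad libitum feeding ZT10 again held the highest values of Ppp1r3g, 13.9, 12.4 and 14.3 CPM, close to the night-restricted ones, with 0.143, 2.14 and 1.61 CPM at ZT14. Its range there was 2.89 ± 0.70 at ZT 9.6 ± 0.9 (adjusted p = 0.00466). Incompletely adapted feeding gave 16.9, 17.1 and 23.6 CPM at ZT10, above all night-restricted and all arrhythmic libraries of that time, and 2.92, 6.16 and 4.26 CPM at ZT14. The range was 2.87 ± 0.67 at ZT 10.1 ± 0.9 (adjusted p = 0.00672).

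Arrhythmic feeding was the paradigm in which replicates of Ppp1r3g differed most from each other. They held 13.2, 0.957 and 4.42 CPM at ZT06, 4.46, 12.8 and 14.04 CPM at ZT10, 5.51, 2.95 and 21.5 CPM at ZT14, and 6.57, 17.7 and 2.48 CPM at ZT18. Each of these 4 times thus held a library near the ZT10 level of the other paradigms beside a library with less than 5 CPM. The standard deviation (SD) of log2 levels within a time, averaged over the 6 times, was 1.03 under arrhythmic, 0.62 under incompletely adapted, 0.78 under ad libitum and 0.43 under night-restricted feeding; the difference between these was not tested. At ZT14 and ZT18 all 3 arrhythmic libraries exceeded all 3 night-restricted ones, with ratios of means of 13.7 and 11.8, and at ZT02 they were all lower, with a ratio of 0.354. The night-restricted libraries of ZT14 and ZT18 held 1 to 12 counts, so these ratios are imprecise.

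The highest mean of Ppp1r3g stood at ZT10 in every paradigm, under arrhythmic feeding at 10.44 CPM beside 9.983 CPM at ZT14. Its fitted range under arrhythmic feeding was 2.97 ± 0.67 with a fitted peak at ZT 12.8 ± 0.8 (adjusted p = 0.0206). That call was lost without ZT14 replicate 3, its highest library (adjusted p = 0.119), without ZT02 replicate 1 (0.0588) or ZT02 replicate 3 (0.0634), and with only the arrhythmic libraries fitted (0.0789). It was also lost with no filter on low counts (0.0553). The difference from night-restricted feeding was called (adjusted p = 0.00482) and held in every alternative run, with adjusted p from 0.000354 to 0.0459. The difference between incompletely adapted and night-restricted feeding was not called (adjusted p = 0.222). All 3 incompletely adapted libraries were higher at ZT10, ZT14 and ZT18, lower at ZT02, and overlapped at ZT06 and ZT22. Single times were not tested.

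**Figure D2:**
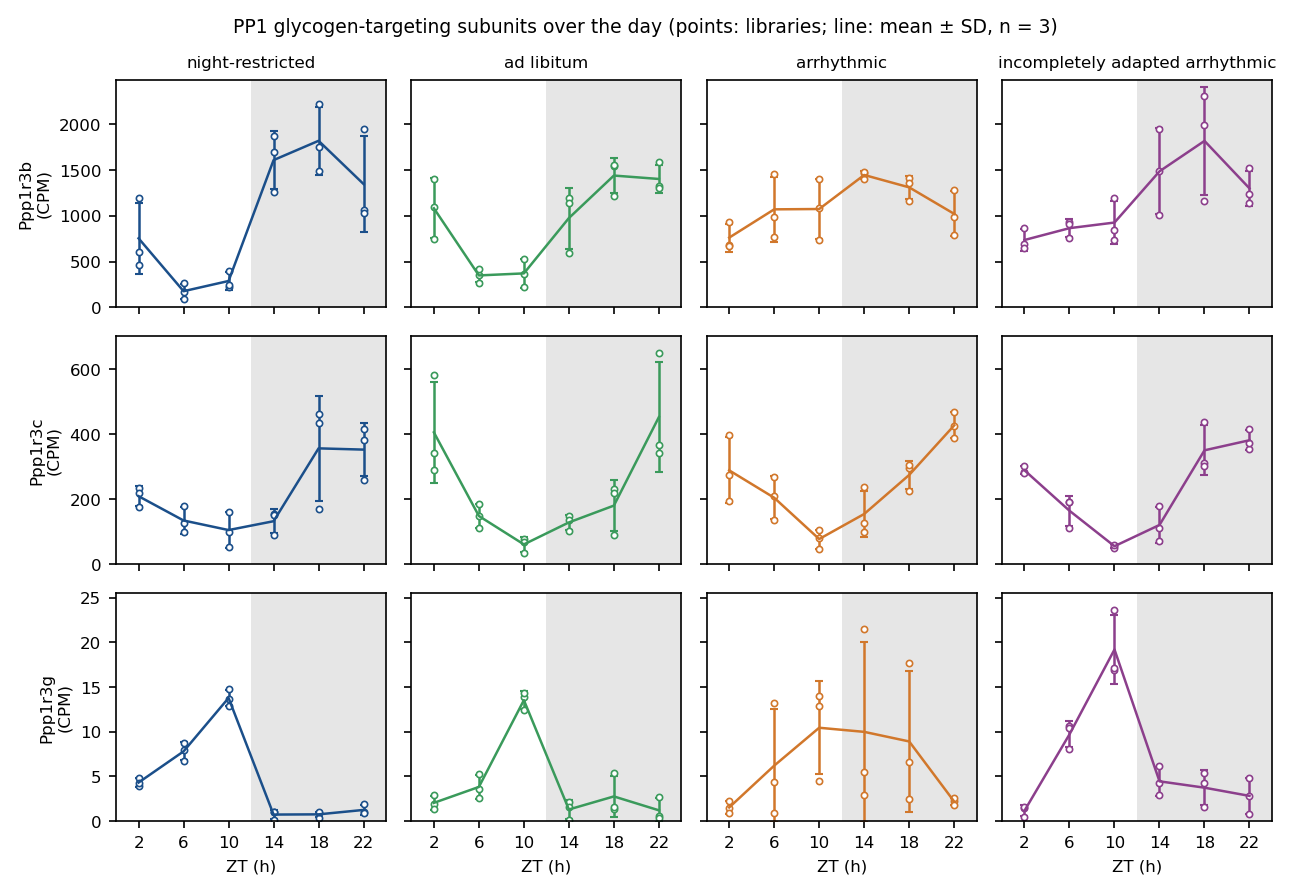
Level in CPM (vertical axis, from 0) of Ppp1r3b, Ppp1r3c and Ppp1r3g against zeitgeber time in the 4 paradigms; open points are single libraries, lines the mean and bars ± SD (n = 3, cut at 0), and grey the dark phase. Ppp1r3b at ZT06 lay between 95.1 and 260.2 CPM under night-restricted and between 770 and 1460 CPM under arrhythmic feeding; Ppp1r3g at ZT14 lay between 0.166 and 1.05 CPM and between 2.95 and 21.5 CPM.

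Gys2 encodes liver glycogen synthase, the enzyme that lengthens the chain (ENSMUSG00000030244.7, chromosome 6, 142422613 to 142473109, minus strand). It was highest around dusk. Under night-restricted feeding it was 30.4, 36.9 and 40.8 CPM at ZT02 and 171, 109 and 114 CPM at ZT10, and still 103, 109.7 and 139 CPM at ZT14 and 57.5, 93.9 and 114 CPM at ZT18. The mean at ZT10 was 3.64 times that at ZT02. Ad libitum feeding gave a like course, 38.2, 43.0 and 34.1 CPM at ZT02 and 129, 93.7 and 108 CPM at ZT14. The ranges were 1.84 ± 0.20 at ZT 12.7 ± 0.4 (adjusted p = 2.09e-09) and 1.52 ± 0.20 at ZT 13.3 ± 0.5 (adjusted p = 5.02e-07).

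Under arrhythmic feeding Gys2 was 63.0, 54.8 and 63.8 CPM at ZT14 and 46.7, 56.4 and 47.7 CPM at ZT18. All of these were below the night-restricted and the ad libitum libraries of the same times, with ratios to the night-restricted means of 0.516 and 0.568. Its highest mean was at ZT10, where 61.3, 70.0 and 116 CPM overlapped with both. The range was 0.81 ± 0.20 at ZT 11.1 ± 1.0 (adjusted p = 0.0245), a call lost without ZT10 replicate 3 (0.173), ZT22 replicate 1 (0.104), ZT02 replicate 2 (0.0635) or ZT10 replicate 2 (0.0629), and with only the arrhythmic libraries fitted (0.0582). This rhythm call was also lost with time as a 6-level factor (0.215) and with no filter on low counts (0.0618). The difference from night-restricted feeding had an adjusted p of 0.0397. It was lost with time as a 6-level factor (adjusted p = 0.34), with the GC slope in the fit (0.103), and in 15 of 72 fits without a single library (0.0517 to 0.0798). These were arrhythmic ZT02, ZT06, ZT14 and ZT18 replicate 1, ZT14 and ZT22 replicate 2, and ZT02, ZT14 and ZT22 replicate 3, and night-restricted ZT02 and ZT10 replicate 1, ZT18 replicate 2, and ZT06, ZT14 and ZT18 replicate 3. Incompletely adapted feeding gave 151, 71.8 and 71.8 CPM at ZT10 and 133, 72.03 and 74.3 CPM at ZT14, where replicate 1 stood above the others at both times. The range was 1.07 ± 0.20 at ZT 12.5 ± 0.7 (adjusted p = 0.000825), and its difference from night-restricted feeding was not called (adjusted p = 0.3).

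Ugp2, whose product makes UDP-glucose, the substrate of the synthase (ENSMUSG00000001891.16, chromosome 11, 21321138 to 21371201, minus strand), cycled with a similar range in all 4 paradigms. The ranges were 1.11 ± 0.28 with night-restricted food, 0.98 ± 0.28 with ad libitum food, 1.11 ± 0.28 in the arrhythmic and 1.15 ± 0.28 in the incompletely adapted group. In that order the peaks were at ZT 10.1 ± 1.0, 12.1 ± 1.1, 6.3 ± 1.0 and 8.3 ± 0.9, with adjusted p of 0.00692, 0.0428, 0.0397 and 0.0311. At ZT06 arrhythmic libraries held 246, 204 and 151 CPM and night-restricted ones 43.0, 197 and 104 CPM, which overlapped. The difference in rhythm was not called against night-restricted (adjusted p = 0.163) or ad libitum feeding (adjusted p = 0.325; unadjusted p = 0.00235). At ZT14 the arrhythmic libraries held 131, 73.5 and 125 CPM, all below the ad libitum ones at 198, 156 and 253 CPM. Night-restricted replicate 1 held 48.6, 43.0, 48.4 and 30.9 CPM at ZT02, ZT06, ZT18 and ZT22, the lowest of its 3 libraries at each of these times, and these are 4 of the libraries of extreme GC slope. Without the 5 such libraries the night-restricted call was lost (adjusted p = 0.0516), and with the slope in the fit it was kept (adjusted p = 3.69e-05). The night-restricted call was also lost with time as a 6-level factor (adjusted p = 0.0694) and with only the night-restricted libraries fitted (0.0787). Nor were the calls of the other paradigms firm. With time as such a factor the ad libitum (0.243) and arrhythmic (0.395) calls were lost. Both were also lost with no filter on low counts (0.0668 and 0.0722). The ad libitum call was lost without any one of 10 of its libraries (ZT02, ZT06, ZT10, ZT14 and ZT22 replicate 1, ZT02, ZT14 and ZT22 replicate 2, ZT10 and ZT14 replicate 3; adjusted p = 0.0519 to 0.152). The arrhythmic call was lost without any one of 10 (ZT02, ZT06, ZT10, ZT18 and ZT22 replicate 1, ZT06 and ZT14 replicate 2, ZT02, ZT10 and ZT18 replicate 3; 0.0546 to 0.147), and the incompletely adapted call without any one of 6 (ZT10 and ZT18 replicates 1 and 2, ZT18 and ZT22 replicate 3; 0.0553 to 0.109).

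Gbe1 encodes the branching enzyme (ENSMUSG00000022707.16, chromosome 16, 70313949 to 70569716, plus strand). No rhythm was called in any paradigm, with ranges of 0.41 ± 0.15, 0.23 ± 0.15, 0.39 ± 0.15 and 0.43 ± 0.15 and adjusted p of 0.0851, 0.525, 0.337 and 0.227 in the order just used. Over the 18 libraries of each paradigm its level ran from 63.0 to 121 CPM (median 96.2), from 84.5 to 138 CPM (median 114), from 85.1 to 175 CPM (median 119), and from 85.3 to 197 CPM (median 126). These ranges over the whole day overlapped, with the night-restricted paradigm lowest. At ZT22 every night-restricted library lay below those of the other paradigms, and at ZT10 and ZT14 below the incompletely adapted ones. Otherwise the night-restricted libraries overlapped with the others at each time.

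Gyg encodes glycogenin, the protein primer of the chain (ENSMUSG00000019528.18, chromosome 3, 20122084 to 20155317, minus strand). Under night-restricted feeding it was 12.6, 7.66 and 6.65 CPM at ZT06 and 3.50, 4.49 and 3.98 CPM at ZT14, with no overlap. The range was 1.14 ± 0.29 at ZT 3.7 ± 1.0 (adjusted p = 0.00982), and 1.05 ± 0.29 at ZT 7.9 ± 1.0 under ad libitum feeding (adjusted p = 0.0367). Neither call was firm. The first was lost without ZT06 replicate 1, the highest library (adjusted p = 0.0518), and without the 5 libraries of extreme slope (0.123). It was also lost with the GC slope in the fit (0.0657, range 0.65 in place of 1.14) and with time as a 6-level factor (0.0761). The second was lost with the GC slope in the fit (0.0769, range 0.68 in place of 1.05) and with only the ad libitum libraries fitted (0.0673). With time as such a factor (0.251) and with no filter on low counts (0.0622) it was lost as well. Leaving out any one of 6 ad libitum libraries also lost it (ZT06, ZT18 and ZT22 replicate 1, ZT06, ZT10 and ZT22 replicate 2, adjusted p = 0.053 to 0.199). The highest of these values was without ZT10 replicate 2, which held 13.7 CPM where the others of that time held 5.10 and 6.05 CPM. In the other paradigms the ranges were 0.38 ± 0.30 and 0.27 ± 0.30 (adjusted p = 0.783 and 0.902), and the difference between arrhythmic and night-restricted feeding was not called (adjusted p = 0.202).

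Pygl encodes liver glycogen phosphorylase, which breaks the chain down (ENSMUSG00000021069.17, chromosome 12, 70190811 to 70231488, minus strand). Under night-restricted feeding it was 2121, 1587 and 2236 CPM at ZT02 and 699, 977 and 1332 CPM at ZT10, with no overlap and a ratio of means of 1.98. Under arrhythmic feeding it was 1217, 1350 and 1454 CPM at ZT02 and 1095, 1020 and 965 CPM at ZT10. The arrhythmic libraries of ZT02 all lay below the night-restricted ones, with a ratio of 0.676, and below the ad libitum ones, which held 1992, 1585 and 1920 CPM. The range was 1.14 ± 0.22 at ZT 0.9 ± 0.8 under night-restricted (adjusted p = 0.000408) and 0.14 ± 0.22 under arrhythmic feeding (adjusted p = 0.927). The ranges under ad libitum (0.58 ± 0.22) and incompletely adapted feeding (0.59 ± 0.22) were not called (adjusted p = 0.213 and 0.299). The difference between arrhythmic and night-restricted feeding had an adjusted p of 0.0313. It was lost once the GC slope entered the fit (0.17), without the 5 libraries of extreme slope (0.108, a difference in range of -0.66 in place of -0.995), and in 6 of 72 fits without a single library (0.0508 to 0.0802). These were arrhythmic ZT14 replicates 1 and 2, and night-restricted ZT02, ZT10 and ZT22 replicate 1 and ZT14 replicate 2.

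**Figure D3:**
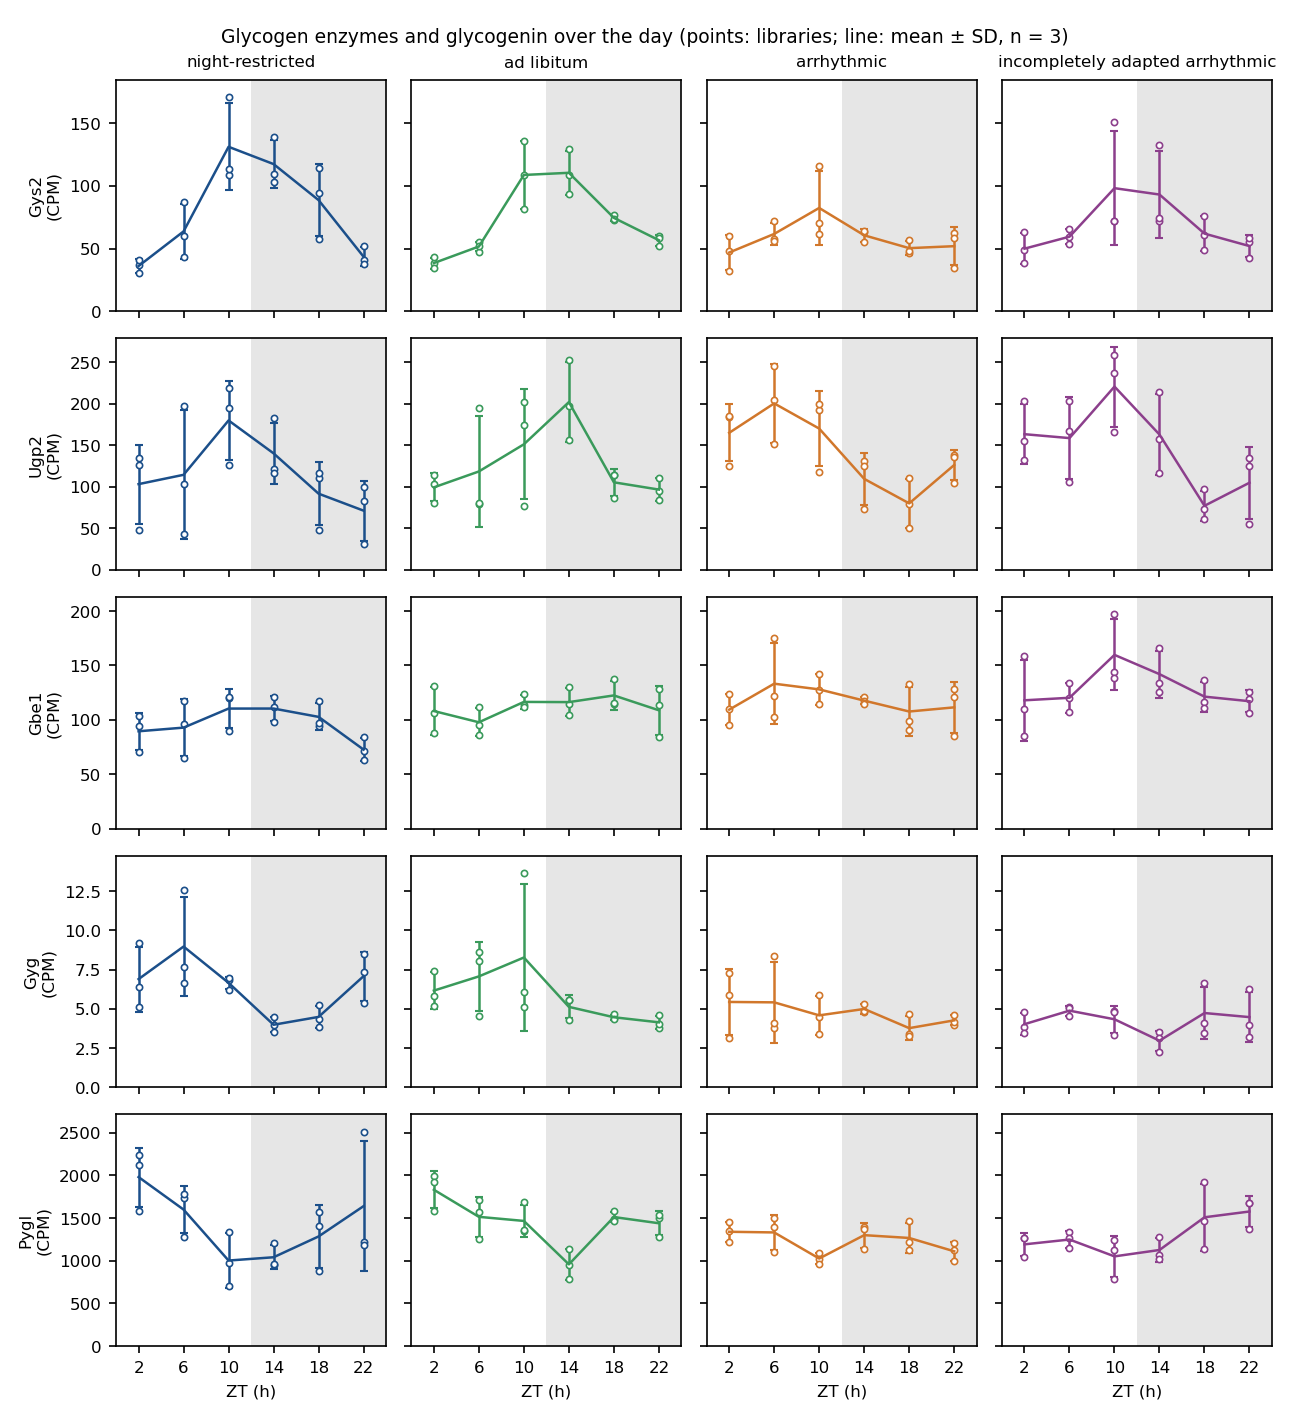
Level in CPM (vertical axis, from 0) of Gys2, Ugp2, Gbe1, Gyg and Pygl against zeitgeber time in the 4 paradigms; open points are single libraries, lines the mean and bars ± SD (n = 3), and grey the dark phase. Gys2 at ZT14 lay between 103 and 139 CPM under night-restricted and between 54.8 and 63.8 CPM under arrhythmic feeding, and Pygl at ZT02 between 1587 and 2236 CPM and between 1217 and 1454 CPM.

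The peaks of the called genes fell in an order over the day. Under night-restricted feeding Pygl peaked first after lights on, followed by Gyg at ZT 3.7 and Ppp1r3g at ZT 6.9, then Ugp2 at ZT 10.1 and Gys2 at ZT 12.7, and last Ppp1r3b at ZT 18.8 and Ppp1r3c at ZT 21.2. The standard errors of these peaks ran up to 1.0 h, and the differences in peak time between genes were not tested. Of the genes called in all 4 paradigms, Ppp1r3c had peaks between ZT 21.2 and 23.2 and Gys2 between ZT 11.1 and 13.3, while those of Ppp1r3g ran from ZT 6.9 to 12.8 and those of Ugp2 from ZT 6.3 to 12.1. For Ppp1r3g the fitted peaks differed although the highest mean stood at ZT10 in all 4 paradigms.

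**Figure D4:**
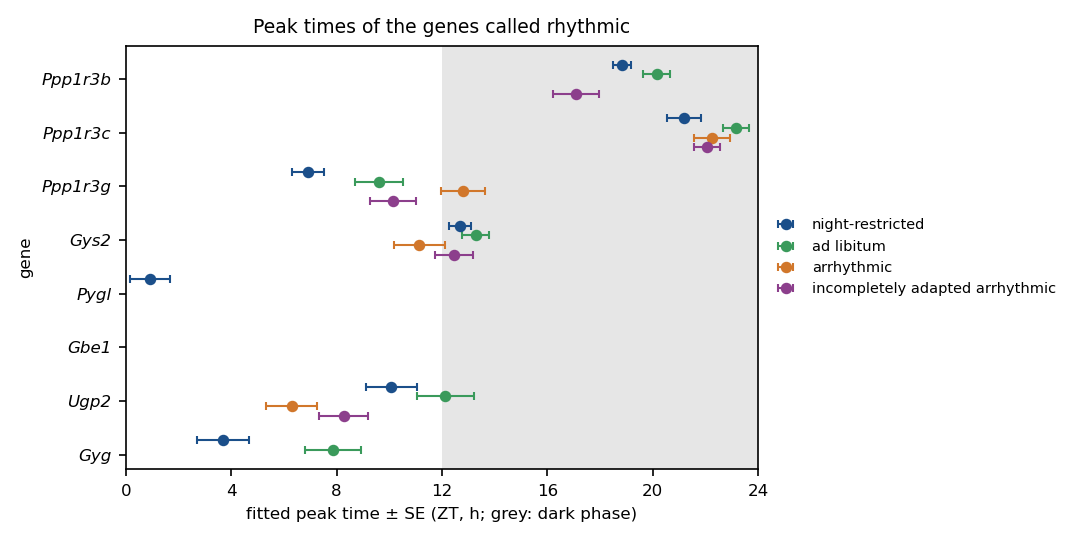
Fitted peak time (horizontal axis, ZT in h, bars ± SE, grey the dark phase) of each gene in the paradigms in which it was called rhythmic. Ppp1r3c stayed between ZT 21.2 and 23.2 in all 4 paradigms, and Ppp1r3g stood at ZT 6.9 under night-restricted and ZT 12.8 under arrhythmic feeding. The highest mean of Ppp1r3g was at ZT10 in all 4.

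The mean level over the day was compared separately, as a difference of log2 means from the same fit. Against night-restricted feeding, arrhythmic feeding changed 2 of 8 genes where the background was 6.92 percent. At an unadjusted p under 0.05 there were 6, against 24.2 percent of all genes. Of the called genes, Gys2 was lower by -0.38 ± 0.10 (adjusted p = 0.0189) and Gbe1 higher by 0.23 ± 0.08 (adjusted p = 0.0457). Ppp1r3b (0.46 ± 0.15, adjusted p = 0.0505) and Gyg (-0.45 ± 0.15, adjusted p = 0.0519) lay just outside the threshold. Without the 5 libraries of extreme GC slope neither call held (adjusted p = 0.0659 for Gys2 and 0.143 for Gbe1), although the differences stayed at -0.38 and 0.23, that of Gbe1 was also lost with the GC slope in the fit (0.0559), and with DESeq2 the count was 4. The call of Gbe1 was lost in 19 of 72 fits without a single library (0.0503 to 0.0853). The count was 1 without any one of 11 libraries (arrhythmic ZT06, ZT10 and ZT14 replicate 1, ZT18 and ZT22 replicate 2 and ZT22 replicate 3, and night-restricted ZT06, ZT10, ZT18 and ZT22 replicate 1 and ZT18 replicate 3). It was 4 without any one of 10 others (arrhythmic ZT06 replicate 3, incompletely adapted ZT18 replicate 2 and ZT06, ZT14, ZT18 and ZT22 replicate 3, ad libitum ZT06 replicate 1, ZT10 replicate 2 and ZT06 replicate 3, and night-restricted ZT02 replicate 3).

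Incompletely adapted feeding differed from night-restricted feeding in the mean level of 3 of 8 genes, where the background was 18 percent. Unadjusted, 6 genes passed, against 36.3 percent of all genes. Gbe1 was higher by 0.33 ± 0.08 (adjusted p = 0.00238), Ppp1r3b higher by 0.48 ± 0.15 (adjusted p = 0.0232), and Gyg lower by -0.64 ± 0.15 (adjusted p = 0.00317). At ZT06 the incompletely adapted libraries of Gyg held 5.11, 4.52 and 5.03 CPM, all below the night-restricted ones. The call of Gbe1 held with the GC slope in the fit, while those of Ppp1r3b (adjusted p = 0.0722) and Gyg (0.0557) were then lost. The difference for Ppp1r3b stayed at 0.48, and that for Gyg was -0.36. Without the 5 libraries of extreme slope both calls were lost as well (0.144 and 0.193), at differences of 0.49 and -0.40.

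**Figure D5:**
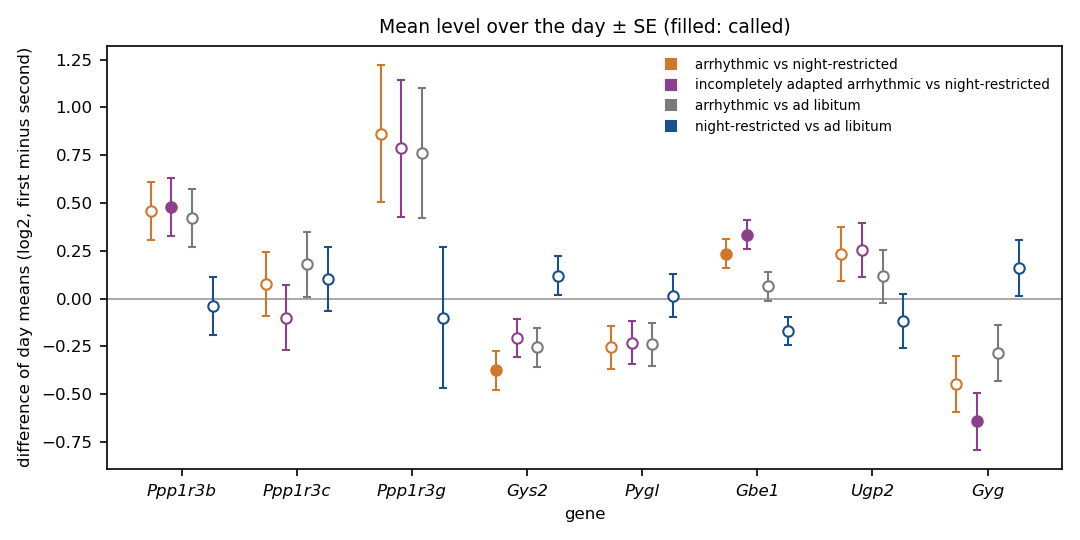
Difference of log2 means over the day (vertical axis, first paradigm minus second) for the 8 genes in 4 comparisons; points are estimates from the fit, bars ± SE, and filled points passed an adjusted p of 0.05. Gbe1 was higher under both arrhythmic paradigms than under night-restricted feeding, by 0.23 and 0.33, and Gys2 was lower under arrhythmic feeding by -0.38.

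In the remaining comparisons few or no differences were called. For mean level, 0 of 8 genes were called between arrhythmic and ad libitum feeding (background 2.1 percent), with 4 unadjusted against 14 percent of all genes. Between night-restricted and ad libitum feeding 0 were called (background 1.62 percent), with 1 unadjusted, Gbe1, against 16.4 percent of all genes. DESeq2 also called 0 in each. For rhythm, 0 of 8 were called between night-restricted and ad libitum feeding (4 unadjusted; background 0 percent, with 1109 of all genes at an unadjusted p under 0.05 and 18 genes called by DESeq2, none of them among the 8). Between the arrhythmic paradigms 0 of 8 were called for rhythm (0 unadjusted; background 0 percent, with 310 genes unadjusted) and 0 for mean level (0 unadjusted; background 0 percent, with 639 genes unadjusted), by edgeR and by DESeq2 alike. The estimates for Ppp1r3b between the arrhythmic paradigms were 0.34 for the difference in range and 0.02 ± 0.15 for the difference in mean level.

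Other genes of glycogen metabolism were counted from a list of 36 symbols, of which 29 passed the filter on low counts. Of these 29, 10 passed the rhythm test with night-restricted and 5 with ad libitum food, where the shares over all genes were 29.9 and 7.48 percent. In each arrhythmic group 2 passed, where the shares were 3.37 and 3.63 percent. The 2 called in all 4 paradigms were Slc37a4, the glucose 6-phosphate translocase, and Slc2a2, the liver glucose transporter GLUT2. Between arrhythmic and night-restricted feeding the rhythm of 2 of the 29 genes differed, where the share over all genes was 3.89 percent. Both had a smaller range under arrhythmic feeding. Among them was Gabarapl1, an autophagy protein that binds a glycogen receptor. Its range was 0.10 ± 0.24 under arrhythmic and 1.67 ± 0.24 under night-restricted feeding (adjusted p of the rhythm difference = 0.0106). In the other 4 comparisons of rhythm the smallest adjusted p among the 29 genes was 0.0676, for Gabarapl1 between incompletely adapted and night-restricted feeding. Ppp1r3e, the only other targeting subunit that could be tested, cycled under night-restricted feeding with a range of 1.32 ± 0.39 and a peak at ZT 15.5 (adjusted p = 0.0204). For mean level, 5 of the 29 genes differed between incompletely adapted and night-restricted feeding, where the share over all genes was 18 percent. Of these, 2 were higher and 3 lower in the incompletely adapted group. The lower ones were Pygb, Ppp1cc and Gsk3a (adjusted p = 0.0362, 0.0252 and 0.0242).

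Genes with a course like that of the 4 most rhythmic members were sought among 6466 genes averaging 10 CPM or more, by Pearson's r over the 24 group means. These means share libraries, depth and the 4 paradigms between genes, so r is a description and carries no p. Closest to Ppp1r3b was Nfic, a transcription factor (r = 0.927), and Hspa4l, a heat shock protein (0.891), was also among the 5 closest. Closest to Ppp1r3c was Ddc, the aromatic amino acid decarboxylase (0.911), and closest to Ppp1r3g was Brap (0.831). Closest to Gys2 were Nrep (0.929) and Hlf, a clock-controlled transcription factor (0.92), and Usp2, a clock-controlled deubiquitinase, followed Acot4 and Fam102a (0.886).

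Of 58 markers of other cell types and of hepatocytes, 37 could be tested, and the smallest adjusted p for a difference in rhythm was 0.0558, for the cholangiocyte marker Sox9 between arrhythmic and night-restricted feeding. For mean level, 4 differed between incompletely adapted and night-restricted feeding (18 percent of all genes tested), 1 higher and 3 lower, 2 of the lower ones being hepatocyte markers. Their part in the mean level results of Gbe1, Ppp1r3b and Gyg was not tested.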

How the data were processed

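Liver mRNA was measured in 72 libraries of 4 feeding paradigms and 6 times, 3 per group, with 4342026 to 12286021 counts each. The authors deposited raw read counts per Ensembl gene, 1 column per library. The submitters' processing notes name the aligner STAR (2.4.2a) together with builds mm10 and GRCm38.p5. How reads were counted, with or without strand and on which annotation, is not given in the sources used here. Another deposited table, named TPM, was not used. Symbols and positions were taken from GENCODE M21 by Ensembl identifier without version. Counts were filtered (filterByExpr over 24 groups), scaled by TMM and fitted with edgeR 4.0.16 in R 4.3.3 by robust quasi-likelihood, with a mean, cosine and sine per paradigm at 24 h; p-values were adjusted over 12712 genes at a threshold of 0.05. Printed CPM are counts scaled to the library total. The procedure was tested on simulated data. Alternatives were RLE size factors, no filter, DESeq2 1.42.0, time as a factor, only the libraries compared, a replicate block, the GC slope as a covariate, and libraries left out. The genes named in the text are all 8 members, Gabarapl1, by its called rhythm difference, and genes among the 5 closest in course; Ppp1r3e, Slc37a4, Slc2a2, Pygb, Ppp1cc, Gsk3a, Pnpla3 and Lgalsl were chosen after their values were seen, and some results for other pathway genes are not reported here. The members and lists were chosen with earlier results of these data known. No replicate pair of the 72 within groups agreed within sampling noise (smallest chi-square per degree of freedom 13.8).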

Additional observations from a re-analysis of the deposited data

Results flagged for a closer look

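Differences in rhythm between paradigms, by the interaction test in edgeR, were called for 6 combinations of gene and comparison. The rhythm of Ppp1r3b differed between arrhythmic and night-restricted (adjusted p = 9.69e-05), incompletely adapted and night-restricted (adjusted p = 0.0122), and arrhythmic and ad libitum feeding (adjusted p = 0.0327). The test covers range and peak time together, and range by itself was not tested. In each of these comparisons the fitted range of Ppp1r3b was smaller under the arrhythmic or incompletely adapted paradigm. In all of these its libraries at ZT06 and ZT10 were higher in the arrhythmic paradigm, 6 of 6 in each comparison. Ppp1r3g differed between arrhythmic and night-restricted feeding (adjusted p = 0.00482), with all 3 arrhythmic libraries higher at ZT14 and at ZT18. Gys2 (adjusted p = 0.0397) and Pygl (adjusted p = 0.0313) differed in the same comparison, with all 3 arrhythmic libraries of Gys2 lower at ZT14 and at ZT18 and all 3 of Pygl lower at ZT02.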

How the results depend on the processing

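Of the 112 test results for the 8 genes, 33 were called. Over all alternatives these gave 3036 values, of which 2834 stayed called in the same direction, 202 were no longer called and 0 changed direction, and 11 of the 33 were called in every alternative. The 79 results not called gave 7268 values, 74 of which passed the threshold. The number of genes called rhythmic under arrhythmic feeding, 4, was 1 with no filter on low counts and 2 with time as a 6-level factor. The number with a rhythm difference between arrhythmic and night-restricted feeding, 4, was 2 with time as such a factor, with the GC slope in the fit and with only the libraries compared; that between incompletely adapted and night-restricted feeding, 1, was 0 with only the libraries compared; and that between arrhythmic and ad libitum feeding, 1, was 0 with no filter. The number with a mean level difference between arrhythmic and night-restricted feeding, 2, was 4 with RLE size factors and with DESeq2, 1 with no filter, with the GC slope in the fit and with only the libraries compared, and 0 without the 5 libraries of extreme GC slope. The number between incompletely adapted and night-restricted feeding, 3, was 1 with the GC slope in the fit and 1 without those 5 libraries. The cause of these changes was not tested.

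With single libraries, or the 6 of a replicate number in a paradigm, left out, the number called rhythmic ranged from 5 to 7 for night-restricted, 1 to 4 for arrhythmic, 2 to 5 for incompletely adapted and 3 to 6 for ad libitum feeding. The number with a rhythm difference from night-restricted feeding ranged from 2 to 4 for arrhythmic and from 0 to 1 for incompletely adapted feeding, and from 0 to 1 for arrhythmic against ad libitum feeding. The number with a mean level difference from night-restricted feeding ranged from 0 to 4 for arrhythmic and from 1 to 4 for incompletely adapted feeding. It was 0 throughout in the other comparisons.

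The labels tie the replicates of different groups by number alone. Deviations of same-numbered libraries correlated at a mean of 0.0652 (0.236 within a paradigm, 0.0178 across paradigms) and of others at -0.0323, and as a hint from the data 41 of 72 libraries correlated best with their own number. With the replicate number as a block the mean level of Ppp1r3b differed between arrhythmic and night-restricted feeding (adjusted p = 0.0447, against 0.0505 without it), and no other call for the 8 genes changed with the block. Depth limits Ppp1r3g most, with a median of 23.5 counts per library.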
